A study of Drosophila melanogaster with 9 samples.

Results

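The cytosolic ribosomal protein (RP) genes were followed through the temporal states of intermediate neural progenitors (INPs), the transit-amplifying cells that type II neuroblasts of the *Drosophila* larval brain produce. RP genes were taken by FlyBase symbol, as all symbols that begin with RpL followed by a digit or P, all that begin with RpS followed by a digit, and sta. Of the 93 symbols that fit, 88 were matched to the 16364 genes of the count files, and RpL19, RpL27A, RpL31, RpS10b and RpS12 were not analysed here. The 88 genes comprise 45 of the large subunit, 3 of its stalk, 37 of the small subunit and RpL7-like, RpL24-like and RpLP0-like, which were placed in neither subunit. RpL22-like and RpS28-like were counted with the subunit of the protein they resemble.

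Poly-A RNA was sequenced from 6000 to 7000 sorted cells per library, in 3 libraries each of D+, Grh+ and Ey+ INPs, 9 in all, the order in which an INP passes through these states. All larvae were wild type apart from the reporters, carried UAS-cd8::tdTomato driven by erm-GAL4, were kept at 29 °C after egg laying and were dissected as wandering larvae of the third instar. D+ INPs were sorted by a GFP fusion of Dichaete (D) made at its own locus, whereas Grh+ and Ey+ INPs were sorted by GFP fusions of Grainyhead (Grh) and Eyeless (Ey) on additional BAC copies, so each state came from its own fly line. The libraries were pools of cells from many brains, and the labels do not say whether replicates came from separate crosses, so p-values measure the spread between these libraries.

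A ribosome is built from a small subunit, which reads the mRNA, and a large subunit, which joins amino acids, each made of ribosomal RNA and RPs. Most RPs are needed in equal number, and flies with a single working copy of an RP gene often show the Minute phenotype of slow development and short bristles. Some RPs are encoded by a pair of paralogous genes, of which one is often used mainly in the germline.

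Counts on genes ranged from 11266164 to 23184025 per library. By sequencing identifier, the D+ libraries came from a flow cell other than that of the Grh+ and Ey+ libraries, so state, fly line and flow cell cannot be told apart in any comparison with D+ INPs. Ey+ replicate 1 stood apart from the other libraries: its 10 most abundant genes held 16.3% of its counts, against 7.17% to 8.97% elsewhere. All 14 neuroblast and INP markers examined were above 0 in every library, and their sum was 6049 to 8794 RPM (counts of a gene, scaled by the library's sum of counts on genes) in D+, 9056 to 9734 RPM in Grh+ and 8391 to 9521 RPM in Ey+ INPs. The sum of 8 neuron markers was 231 to 1051 RPM in D+, 435 to 1011 RPM in Grh+ and 722 to 3146 RPM in Ey+ INPs. Of these only Syn was at 0 in any library, in D+ replicate 2, and 8 glia markers, all above 0, summed to 903 to 1840, 1563 to 1961 and 1188 to 1461 RPM in D+, Grh+ and Ey+ INPs. Within each state, the library with the highest neuron sum (D+ replicate 1, Grh+ replicate 2 and Ey+ replicate 1) was the one with the lowest RP share given next, and the part of neuron or glia RNA in the RP levels was not tested. Gene by gene, the median log2 fold change of the neuron markers was 1.27 in Grh+ and 1.67 in Ey+ against D+ INPs, with 1 and 0 of 8 negative and none called. That of the glia markers was 1.56 and 1.12, with 1 and 2 of 8 negative and 2 called higher in each comparison. The 14 neuroblast and INP markers include D, grh and ey, by which cells were sorted. Of them 2 were called higher and 4 lower in Grh+, and 2 higher and 3 lower in Ey+ against D+ INPs. Of all genes tested, 3.37% were called higher and 2.85% lower in Grh+, and 3.42% and 4.52% in Ey+ against D+ INPs. In bulk libraries, fewer cells of a type and less RNA per cell cannot be told apart.

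The 88 RP genes together took 7.71%, 13.7% and 10.3% of the counts in the D+ libraries, 8.57%, 8.04% and 8.45% in the Grh+ libraries and 3.99%, 6.72% and 7.81% in the Ey+ libraries. The means were 10.6 ± 3.01% in D+, 8.35 ± 0.278% in Grh+ and 6.17 ± 1.97% in Ey+ INPs (SD, n = 3 each). D+ replicate 1 lay below all Grh+ libraries and below Ey+ replicate 3, so the D+ range overlapped both later states, whereas every Ey+ library lay below every Grh+ library. When the denominator was the library size after TMM scaling, which discounts a few very abundant genes, the shares were 7.73% to 13.7% in D+, 7.14% to 7.83% in Grh+ and 5.39% to 7.60% in Ey+ INPs, so that Ey+ and Grh+ INPs then overlapped. The ratio of summed large-subunit to summed small-subunit RPM stayed between 1.40 and 1.49 over the 9 libraries.

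**Figure D1:**
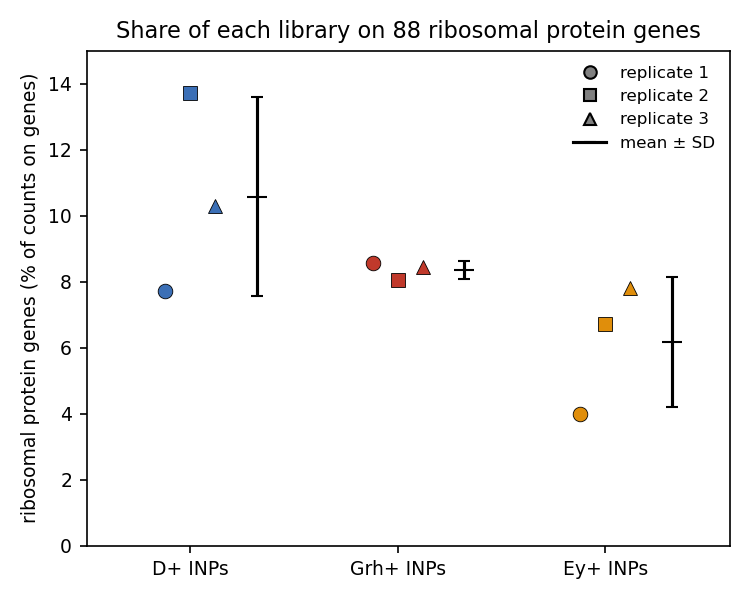
Share of the counts on genes (%) taken by the 88 RP genes in each library (points, shaped by replicate) of D+, Grh+ and Ey+ INPs, with mean ± SD (black bars, n = 3). The D+ libraries spread over 7.71% to 13.7%, the Grh+ libraries lie between 8.04% and 8.57%, and the lowest library is Ey+ replicate 1 at 3.99%.

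RP genes moved together between replicates of D+ and of Ey+ INPs. For the 81 RP genes with at least 10 counts in every library, the median over genes of the SD of log2 RPM between replicates was 0.435 in D+, 0.0597 in Grh+ and 0.505 in Ey+ INPs. Over all 7410 tested genes with such counts it was 0.432, 0.168 and 0.391. After each library was set relative to the geometric mean of these RP genes, the median SD was 0.110 in D+, 0.0655 in Grh+ and 0.0546 in Ey+ INPs. Most of the replicate spread of an RP gene in D+ and Ey+ INPs was thus shared with the other RP genes, and whether genes outside the RP list shared it was not tested. The largest relative SD in D+ INPs was that of RpS19b, at 1.91, the germline paralog described below.

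Levels were also set per kilobase of exon, with the exons of all annotated transcripts of a gene joined. That length can exceed the length of the mRNA present, so levels of different genes compare only roughly. On this measure, the 65 tested RP genes outside paralogous families and the -like genes spanned 10.8-fold. RpS21 was lowest (257 RPM per kb as the mean of 9 libraries) and RpS3A highest (2771 RPM per kb). RpS3A, a small-subunit protein at the mRNA exit side, was followed by RpL15 (2117 RPM per kb), a core large-subunit protein, RpL10 (2116 RPM per kb), needed for the joining of the subunits, RpL41 (1968 RPM per kb) and RpL23A (1950 RPM per kb), which lies at the exit of the peptide tunnel. RpS3A ranked 2 in D+ INPs and 1 in both later states, and RpL15 ranked 8 in D+ INPs and 2 in both later states. The order differed more for RpL41, the smallest RP, a short basic peptide that lies at a bridge between the subunits. RpL41 had the highest level of all 81 RP genes in D+ INPs (3653 ± 1169 RPM per kb), but ranked 25 in Grh+ INPs (1287 ± 60.7 RPM per kb) and 24 in Ey+ INPs (965 ± 233 RPM per kb; SD, n = 3 each). At the low end were RpS19b (3.64 RPM per kb), RpLP0-like (104 RPM per kb), RpL24-like (128 RPM per kb) and RpS15Ab (140 RPM per kb), which are all paralogs or -like genes. RpL24-like and RpLP0-like are related to yeast factors that act in assembly of the large subunit.

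To ask whether RP genes differed between Grh+ and D+ INPs, all 9 libraries were fitted in 1 model of edgeR's quasi-likelihood test, with p-values adjusted by Benjamini-Hochberg over the 10193 genes that passed the expression filter, 81 RP genes among them. In Grh+ INPs 8 of 81 RP genes were lower at an adjusted p under 0.05 and none was higher, where 2.85% of all genes tested were called lower and 3.37% higher. They were RpL41, RpL39, RpS21, RpL24, RpS28b, RpS27, RpS20 and RpL29. The median log2 fold change of the 81 was -0.55, against 0.00 over all genes tested, and 78 of 81 were negative. The median was -0.61 for the 45 tested large-subunit and stalk genes and -0.50 for the 34 tested small-subunit genes. By RPM alone, all Grh+ libraries lay below all D+ libraries in 30 of the 81 (8.35% of all genes) and above them in none (21.3% of all genes). An unadjusted p under 0.05 was reached by 41 of the 81, all lower (11.8% of all genes).

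RpL41 (FBgn0066084, chromosome 2R, 24903416 to 24903935) had 389, 425 and 420 RPM in Grh+ INPs, against 758, 1489 and 1259 RPM in D+ INPs. The groups did not overlap, and the log2 fold change was -1.66 ± 0.245 (SE; edgeR adjusted p = 0.00786). RpL39 (FBgn0023170, 2R, 24061853 to 24062431), a small protein of the peptide exit tunnel, had 143, 139 and 151 RPM in Grh+ INPs, against 226, 511 and 391 RPM in D+ INPs. It too did not overlap, at -1.53 ± 0.276 (adjusted p = 0.0151).

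RpS21 (FBgn0015521, 2L, 2856070 to 2857029), a small-subunit protein whose loss in flies causes overgrowth of blood-forming organs, had 146, 168 and 166 RPM in Grh+ INPs, against 280, 492 and 351 RPM in D+ INPs. Its log2 fold change was -1.38 ± 0.235 (adjusted p = 0.0124), with no overlap. RpL24 (FBgn0032518, 2L, 13393687 to 13395131), which forms a bridge to the small subunit, had 425, 438 and 457 RPM in Grh+ INPs, against 724, 1170 and 1102 RPM in D+ INPs (-1.33 ± 0.252, adjusted p = 0.0174). Of the RpL24 exons, 21.6% overlap CG7099 on the opposite strand, and reads wholly in such an overlap were counted for neither gene because strand was not used.

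RpS28b (FBgn0030136, X, 9554623 to 9555661), a small-subunit protein by the mRNA exit channel, had 463, 503 and 462 RPM in Grh+ INPs, against 754, 1110 and 1147 RPM in D+ INPs (-1.23 ± 0.205, adjusted p = 0.0116). RpS27, a zinc-finger protein of the small subunit, had 576, 675 and 599 RPM in Grh+ INPs, against 864, 1338 and 1396 RPM in D+ INPs (-1.11 ± 0.224, adjusted p = 0.0226). In both genes every Grh+ library lay below every D+ library. RpS20, a protein of the small-subunit head, and RpL29 of the large subunit were smaller in their differences, at -0.96 ± 0.231 (adjusted p = 0.0401) and -0.93 ± 0.230 (adjusted p = 0.0437). The stricter rule that also asks for an absolute log2 fold change over 1 and over 10 RPM in a state kept the first 6 genes described here, all lower, and none higher (1.43% of all genes called lower, 1.73% higher).

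At the other end, RpS14b (0.17 ± 0.269), RpL5 (0.10 ± 0.225) and RpL9 (0.04 ± 0.262) had the only positive values, none past the test, and RpL15 had -0.11 ± 0.218. RpL5, which carries the 5S ribosomal RNA into the large subunit, had 5556, 5069 and 5152 RPM in Grh+ INPs, against 3060, 5410 and 4778 RPM in D+ INPs, and the groups overlapped. The number of called RP genes depended on single libraries. It was 27 without D+ replicate 1, 4 without D+ replicate 3, 0, 1 and 1 without Grh+ replicate 1, 2 and 3, and 5 without Ey+ replicate 2. The count over all genes moved with it: against 635 with all libraries, it was 1099, 369, 56, 126, 88 and 220 in these fits. DESeq2 called 22 RP genes, all lower, and 1330 genes in all. RpL41 was called in 17 of the 18 alternatives, and RpL39 and RpS21 in 15. RpS28b was called in 14, RpL24 in 13, RpS27 in 12, and RpS20 and RpL29 in only 4.

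The comparison of Ey+ with D+ INPs uses the same D+ libraries and is given with its own values. In Ey+ INPs 25 of 81 RP genes were lower at an adjusted p under 0.05 and 0 were higher, where 4.52% of all genes tested were called lower and 3.42% higher. The median log2 fold change was -0.78 (-0.02 over all genes tested), and 80 of 81 were negative, with medians of -0.81 for large-subunit and stalk genes and -0.77 for small-subunit genes. All Ey+ libraries lay below all D+ libraries by RPM in 44 of the 81 (14.6% of all genes) and above them in none (9.88% of all genes), and 62 had a lower value with an unadjusted p under 0.05 (14% of all genes). The stricter rule kept 17 lower and none higher (2.31% of all genes called lower, 1.65% higher), 11 of the large subunit and stalk and 6 of the small subunit.

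RpL41 had 223, 341 and 362 RPM in Ey+ INPs, against the D+ values above, a log2 fold change of -1.82 ± 0.247 (adjusted p = 0.00406). RpL39 had 73.6, 120 and 135 RPM (-1.68 ± 0.277, adjusted p = 0.00948) and RpS21 had 73.0, 128 and 143 RPM (-1.62 ± 0.237, adjusted p = 0.00595). In these 3 genes every Ey+ library lay below every D+ library, and Ey+ replicate 1 was the lowest. RpL24 followed at -1.51 ± 0.253 (adjusted p = 0.00977), RpS28b at -1.38 ± 0.206 (adjusted p = 0.00644), RpS27 at -1.28, RpS20 at -1.23 and RpL29 at -1.09.

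The other genes of the stricter rule were RpL34b (-1.35 ± 0.30), RpL18 (-1.31 ± 0.286), RpL34a (-1.22 ± 0.268), RpL27 (-1.22 ± 0.251), RpS19a (-1.16 ± 0.272), RpS16 (-1.08 ± 0.258), RpLP1 (-1.06 ± 0.251), RpL14 (-1.01 ± 0.241) and RpL10Ab (-1.0 ± 0.204), with adjusted p between 0.0212 and 0.0370. RpLP1 belongs to the stalk, which recruits the elongation factors to the ribosome. Its partners RpLP2 (-1.05 ± 0.296, adjusted p = 0.0592) and RpLP0 (-0.84 ± 0.239, adjusted p = 0.0616), the base of the stalk, missed the threshold. The ubiquitin fusions, which release ubiquitin and an RP from 1 precursor, were RpS27A (-0.91 ± 0.201, adjusted p = 0.0290) and RpL40 (-0.61 ± 0.225, adjusted p = 0.122), and only RpS27A was called. sta, the fly gene for the laminin-receptor-like protein of the small subunit, had -0.65 ± 0.254 (adjusted p = 0.141).

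Close to 0 were RpL5 (0.00 ± 0.225), RpS14b (-0.07 ± 0.269), RpL9 (-0.13 ± 0.262) and RpL8 (-0.28 ± 0.284). Here too the count moved with single libraries, to 45, 9 and 7 without D+ replicate 1, 2 and 3, to 7, 13 and 7 without Grh+ replicate 1, 2 and 3, and to 5, 2 and 10 without Ey+ replicate 1, 2 and 3. Over all genes, 810 were called with all libraries, 1284, 516 and 496 without each D+ library, 276, 463 and 281 without each Grh+ library and 173, 116 and 401 without each Ey+ library, in the same order. DESeq2 called 44 RP genes, all lower, and 1531 genes in all. RpL41 and RpS21 were called in all 18 alternatives and RpS28b in 17. Of the other called genes named above, RpL24 and RpL39 were called in 16, and RpS20 and RpS27 in 15. RpL27 was called in 12, RpL10Ab and RpL34a in 11, RpL18 and RpL34b in 10 and RpL29 in 9. RpLP1 and RpS19a were called in only 6, and RpL14, RpS16 and RpS27A in only 5.

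**Figure D2:**
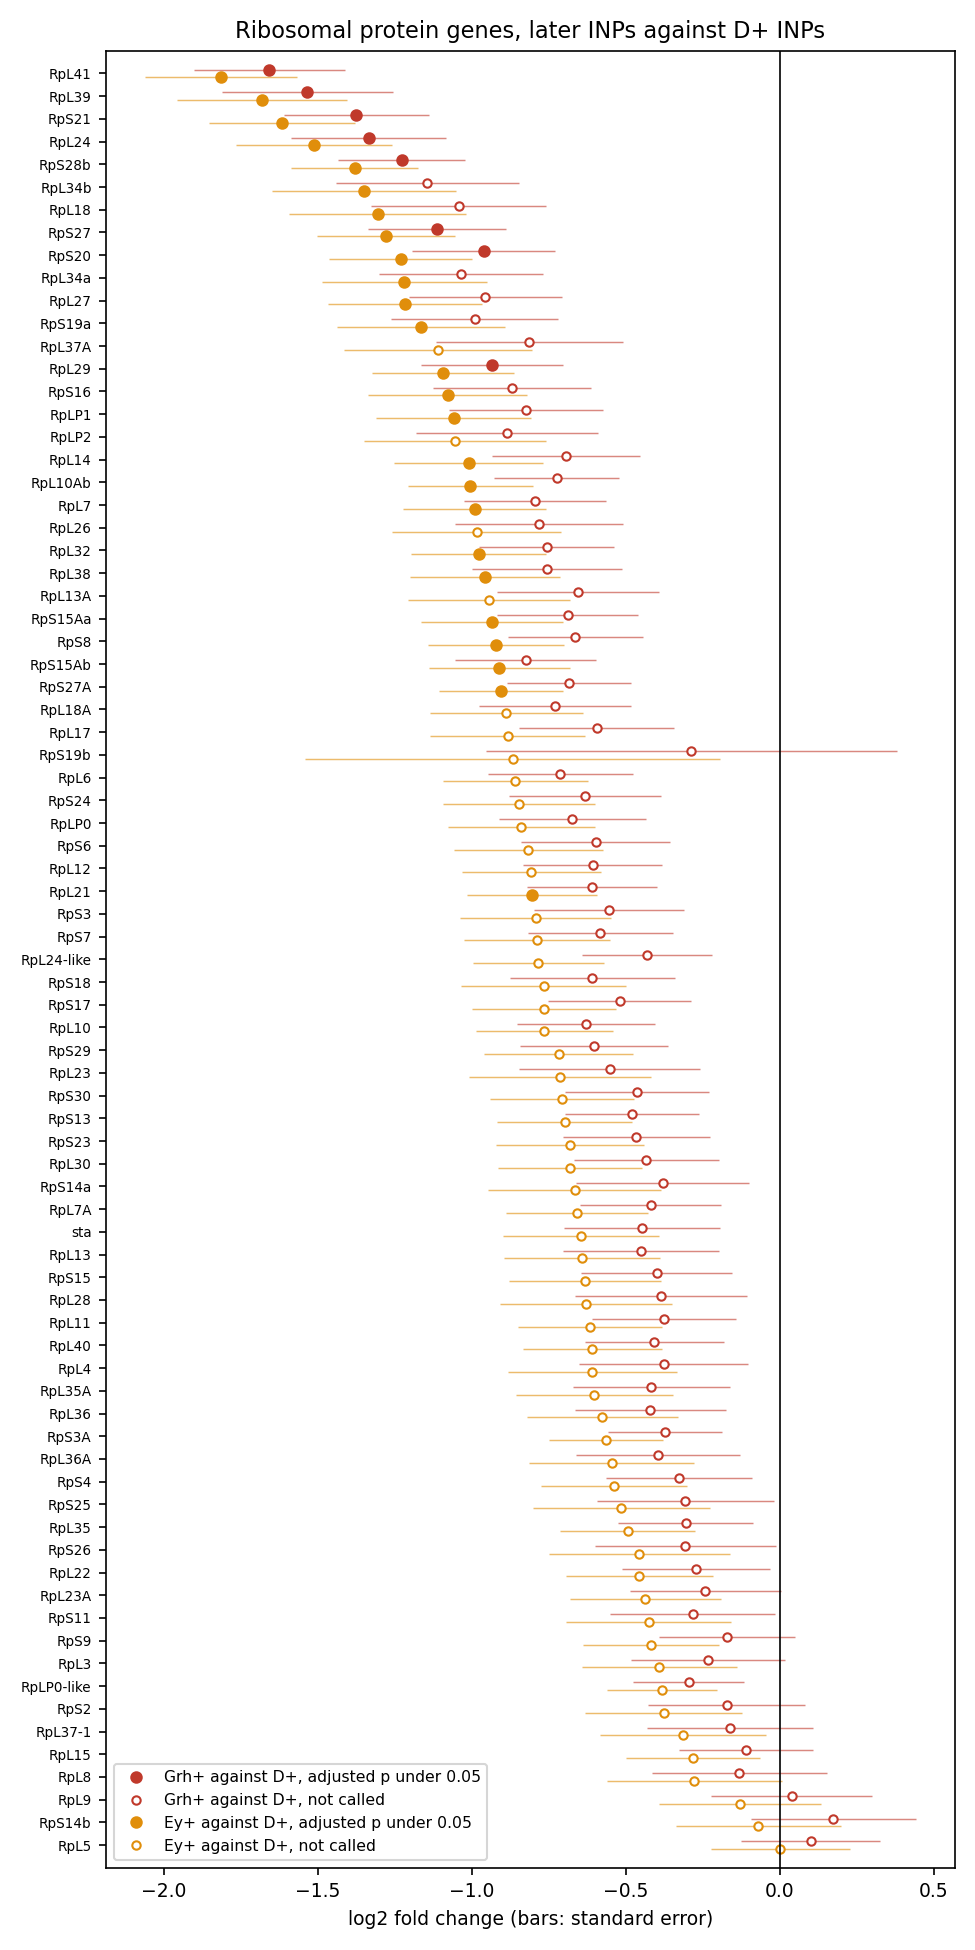
Log2 fold change (horizontal axis, bars are standard errors) of 79 of the 81 RP genes that passed the filter, in Grh+ against D+ INPs (red) and in Ey+ against D+ INPs (orange), with filled points for an adjusted p under 0.05 in edgeR. Genes run from the lowest Ey+ value (RpL41, -1.82) to the highest (RpL5, 0.00), and all filled points, 8 red and 25 orange, are below 0.

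Between Ey+ and Grh+ INPs no RP gene was called. The count was 0 of 81 in edgeR, where 0.167% of all genes tested were called lower and 0.0687% higher, and 0 in DESeq2. At an unadjusted p under 0.05 it was also 0 in either tool, where edgeR had 4.92% of all genes lower. The median log2 fold change was -0.20 (-0.03 over all genes tested), and all 81 were negative, the highest at -0.09 ± 0.228 for RpS15Ab. Without Ey+ replicate 1 the median was -0.07, beside -0.04 over all genes tested. Among the lowest were RpS19b (-0.58 ± 0.675), RpL24-like (-0.35 ± 0.212), RpL14 (-0.32 ± 0.239) and RpL37A (-0.30 ± 0.304), and after RpS15Ab the highest were RpLP0-like (-0.09 ± 0.180), RpL5 (-0.10 ± 0.225), RpS29 (-0.11 ± 0.240) and RpL10 (-0.14 ± 0.222). By RPM, which is not corrected for the few abundant genes of Ey+ replicate 1, all Ey+ libraries lay below all Grh+ libraries in 55 of the 81 (21.5% of all genes) and above them in none (1.72% of all genes).

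Because RP genes moved together between libraries, their levels were also compared relative to one another, with all libraries scaled to the geometric mean of the 81 RP genes, a scaling chosen after the data had been seen. It moves the median of all genes to 0.50 in Grh+ and 0.72 in Ey+ against D+ INPs, so the shares of all genes called lower and higher on this scale are set by the scaling and are no measure for the RP counts. On that scale, Grh+ INPs had 5 RP genes lower than D+ INPs (RpL41, RpL39, RpS21, RpL24 and RpS28b, where 0.54% of all genes were called lower) and 3 higher (RpS14b, RpL5 and RpL9, where 9.73% were called higher). Relative log2 fold changes ran from -1.07 ± 0.172 for RpL41 (edgeR adjusted p = 0.0146) to 0.77 ± 0.149 for RpS14b (adjusted p = 0.0207). RpL5 had 0.67 ± 0.157 (adjusted p = 0.0336) and RpL9, a protein at the base of the stalk, 0.63 ± 0.155 (adjusted p = 0.0375).

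Ey+ INPs had the same 5 genes lower than D+ INPs (0.795% of all genes) and 6 higher (22.7% of all genes), among them RpL5, RpS14b, RpL9, RpL15 and RpL37-1. RpL15 and RpL37-1 lay just under the threshold (edgeR adjusted p = 0.0499 for each). Here RpL41 had -1.0 ± 0.172 (adjusted p = 0.00818) and RpL5 0.79 ± 0.158 (adjusted p = 0.0121). Between Ey+ and Grh+ INPs no RP gene was called on this scale (0 of 81 with an unadjusted p under 0.05, and 0 of all genes called), and relative differences of RpL41, RpL39, RpS21, RpL24 and RpS28b were all between -0.03 and 0.07. Leaving out single libraries moved the counts. For Grh+ against D+ INPs they were 3 without D+ replicate 3, 0 without any 1 of the Grh+ libraries, and 2 without Ey+ replicate 2 or 3. For Ey+ against D+ INPs they were 5 without D+ replicate 3, 4, 7 and 4 without Grh+ replicate 1, 2 and 3, and 4, 3 and 5 without Ey+ replicate 1, 2 and 3. Of these, 2 were higher without D+ replicate 3, and 1, 3 and 1 without Grh+ replicate 1, 2 and 3. The higher genes numbered 1, 0 and 1 without Ey+ replicate 1, 2 and 3.

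**Figure D3:**
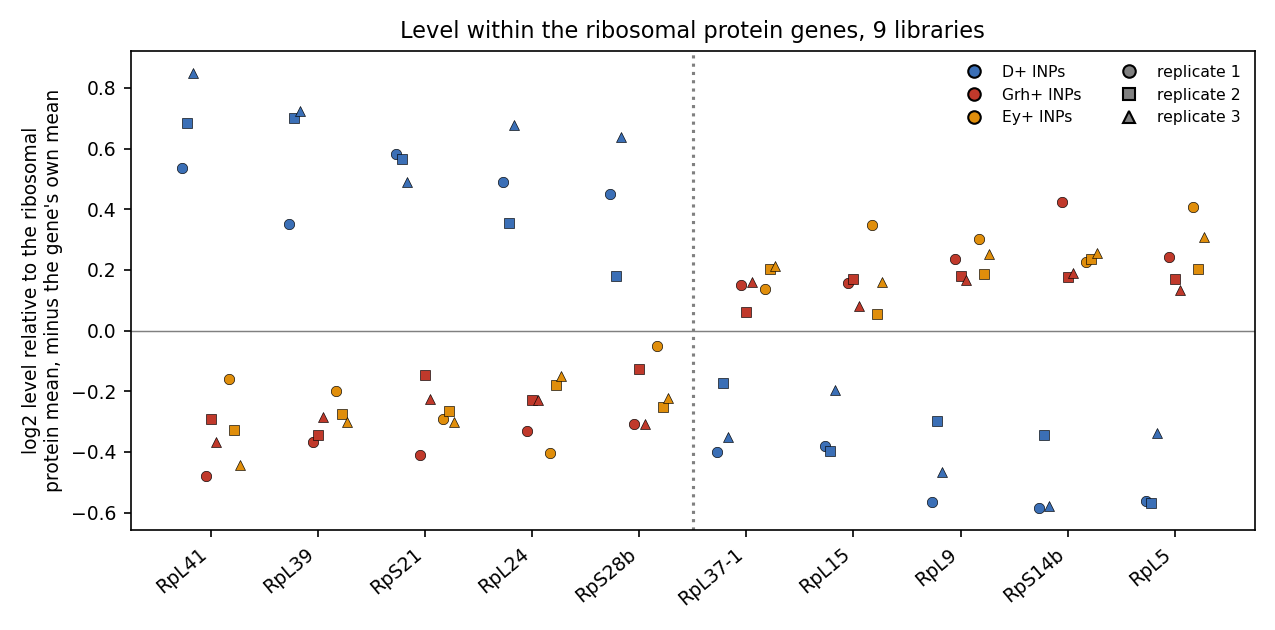
Log2 level relative to the geometric mean of the RP genes, minus the gene's own mean over the 9 libraries, for 10 of the 11 RP genes called relative to the others (blue, D+; red, Grh+; orange, Ey+; shape, replicate). Left of the dotted line every D+ library lies above every later library, right of it every D+ library lies below, and Grh+ and Ey+ libraries lie at similar heights. The genes drawn were picked by their calls in these same libraries. Of all 81 RP genes on this scale, 23 lay lower and 25 higher without overlap in Grh+ against D+ INPs. In Ey+ against D+ INPs these counts were 23 and 27, and in Ey+ against Grh+ INPs they were 4 and 7. The scale is set by the RP genes' own mean, and the share over all genes was not taken, so these counts have no background.

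The fold changes against D+ INPs varied with gene length, which the choice of genes did not use. Over the 81 RP genes, log2 fold change and log10 of exon length had a Pearson r of 0.44 (Spearman 0.35) in Grh+ against D+ INPs and 0.45 (0.35) in Ey+ against D+ INPs, and 0.07 in Ey+ against Grh+ INPs. The genes share libraries, so these are descriptions. Over 10067 genes tested the values were 0.13 (Spearman 0.22), 0.14 (0.24) and 0.03. RpL39 (288 bp of exon), RpL41 (320 bp) and RpL29 (389 bp) are among the shortest, whereas RpL5 is the longest at 3835 bp, and without RpL5 r was 0.39 and 0.40 against D+ INPs. RpS21 (842 bp), RpS28b (972 bp) and RpL24 (1265 bp), also among the lowest, are of middle length. After removal of a loess trend of counts on exon length from every library, 9 and 15 RP genes were called in Grh+ and in Ey+ against D+ INPs, with 571 and 497 genes called in all. The RP medians were then -0.68 and -0.81, beside -0.27 and -0.18 over all genes. The part of transcript length in these differences was otherwise not tested.

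RP introns often hold small nucleolar RNA (snoRNA) genes, whose products guide modification of ribosomal RNA, and 27 of the 81 RP genes held 73 of them. Their median log2 fold change was -0.40 in Grh+ against D+ INPs, with 1 called, and that of the 54 others was -0.62, with 7 called. In Ey+ against D+ INPs the medians were -0.63 with 5 called and -0.84 with 20 called. By chromosome arm, medians in Ey+ against D+ INPs lay between -0.86 (3R, 20 genes) and -0.65 (X, 14 genes) for arms with more than 1 RP gene.

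**Figure D4:**
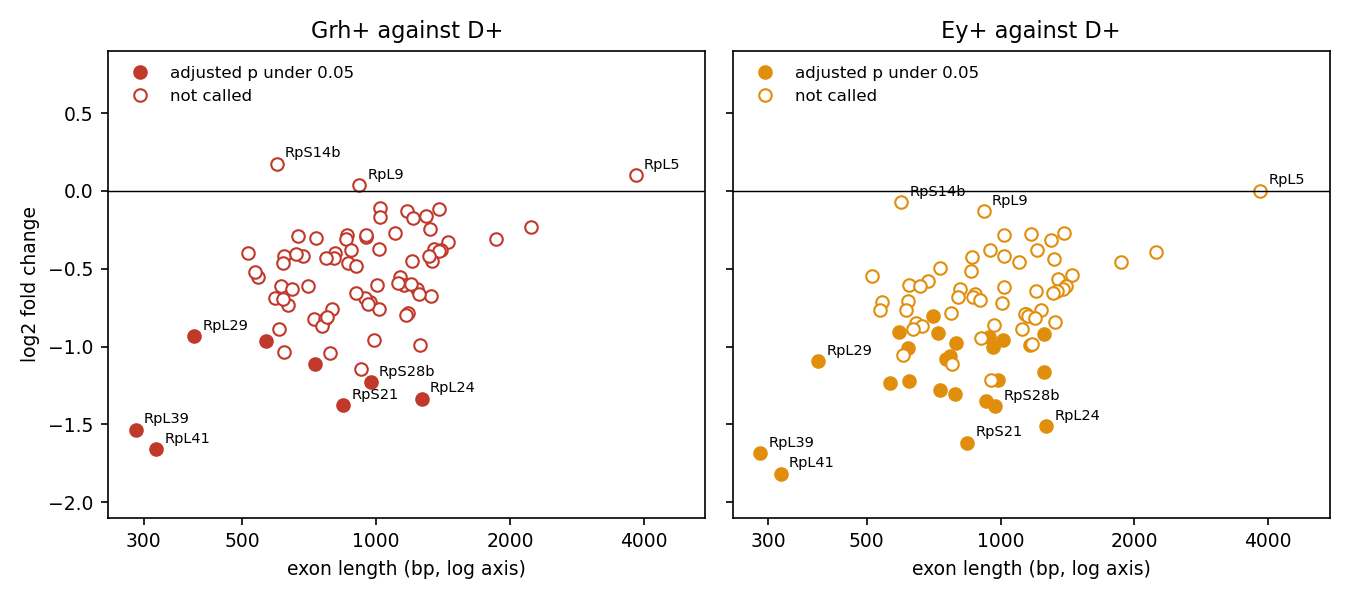
Log2 fold change against exon length (bp, log axis) for 81 RP genes, in Grh+ against D+ INPs (left) and Ey+ against D+ INPs (right), filled where the adjusted p was under 0.05. RpL39 and RpL41 lie at the short, low corner of both panels and RpL5, at 3835 bp, close to 0 at the long end.

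RP families with a pair of genes were compared by the share of counts from each paralog, which does not depend on library scaling. RpS14a and RpS14b encode the same small-subunit platform protein and lie 220 bp apart on X (RpS14a at 7933742 to 7934677, RpS14b at 7934898 to 7935792). RpS14b gave 26.9%, 26.8% and 26.7% of the counts of both genes in Grh+ INPs and 28.4%, 26.8% and 27.1% in Ey+ INPs, against 20.1%, 20.2% and 19.4% in D+ INPs. The Wilson 95% intervals of the later libraries began at 25.7% or above and those of the D+ libraries ended at 20.9% or below, and no library overlapped between D+ and a later state.

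The log2 ratio of RpS14b to RpS14a was -1.45 ± 0.00703 in Grh+ and -1.40 ± 0.0641 in Ey+ INPs, against -2.01 ± 0.0396 in D+ INPs (SD, n = 3 each). The differences of 0.56 and 0.61 had an exact two-sided permutation p of 0.1, the smallest that 3 libraries against 3 allow, and an adjusted p of 0.273 over 30 ratio comparisons. Between Ey+ and Grh+ INPs the ratios overlapped (difference 0.05, exact p = 0.2). Reads that fit both genes were set aside, so the share depends on the reads that tell the 2 copies apart, and their sequences were not compared. Fly line and state cannot be told apart here.

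RpL34a gave 33.4% to 39.7% of RpL34 counts in Grh+ INPs and 34.0% to 37.7% in Ey+ INPs, against 33.4% to 35.2% in D+ INPs. RpS15Ab gave 7.37% to 8.41% of RpS15A counts in Grh+ INPs and 8.66% to 9.10% in Ey+ INPs, against 8.40% to 9.31% in D+ INPs. Both overlapped with D+ INPs in either later state, whereas RpS15Ab did not overlap between Ey+ and Grh+ INPs (exact permutation p = 0.1, adjusted p = 0.273). RpL34a and RpL34b lie apart on 3R, and RpS15Aa and RpS15Ab lie on X and 2R.

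**Figure D5:**
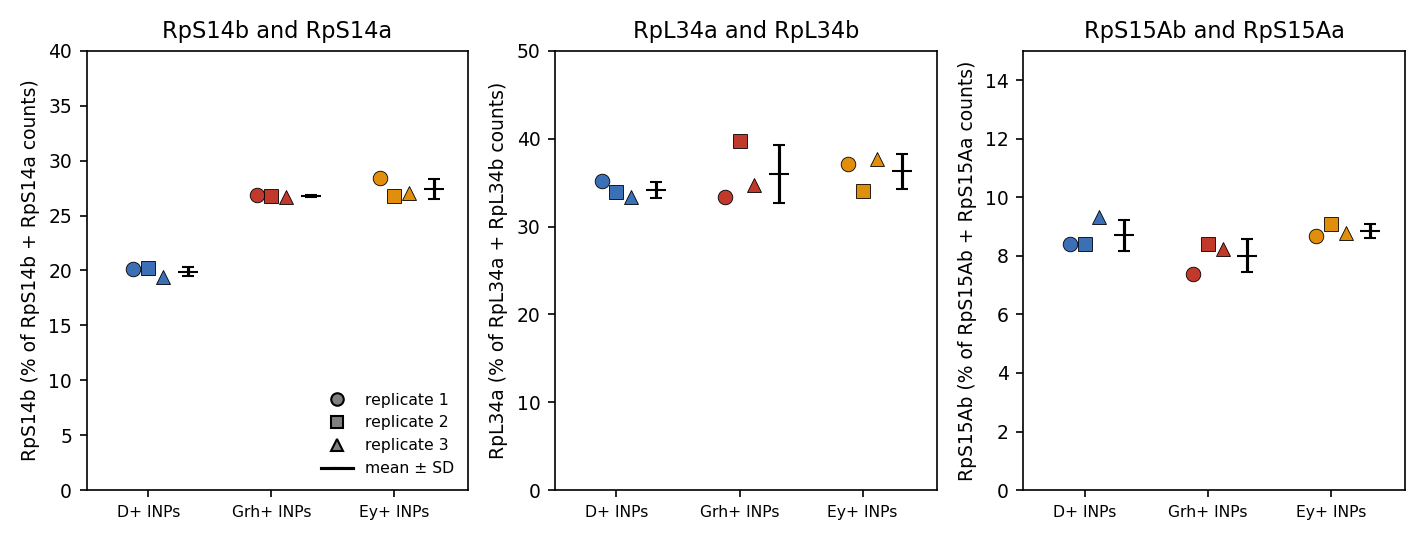
Share (%) of the counts of a paralogous pair that came from RpS14b, RpL34a and RpS15Ab in each library (points, shaped by replicate), with mean ± SD (black, n = 3) for D+, Grh+ and Ey+ INPs. RpS14b stands at 19.4% to 20.2% in D+ and at 26.7% to 28.4% in the later states, whereas the RpL34a and RpS15Ab shares overlap between D+ and each later state.

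RpS19b, a paralog known mainly from the germline, was rare and gave 0.0414% to 0.655% of RpS19 counts in D+ INPs, 0.357% to 0.567% in Grh+ INPs and 0.302% to 0.333% in Ey+ INPs. Its counts in D+ replicate 1, 2 and 3 were 117, 13 and 66. D+ replicate 1 gave the top and D+ replicate 2 the bottom of the wide D+ range.

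The 7 RP genes that did not pass the filter were RpL10Aa, RpL22-like, RpL37-2, RpL7-like, RpS10a, RpS28-like and RpS28a. The highest value of any of them in any library was 1.25 RPM, and their counts summed over the 9 libraries ran from 1 for RpL7-like to 61 for RpL22-like, a testis-enriched paralog of RpL22. RpS28a and RpS28-like had 0 counts in all D+ libraries, which allows a level of up to 0.129 to 0.153 RPM per library at 3 counts, and 8 and 18 counts in the later libraries together. Grh+ replicate 2 held 18 of the 26 RpL10Aa counts and 6 of the 7 RpL37-2 counts. These levels are too low to compare states.

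Other genes of protein synthesis were followed by lists of their names. Of 49 tested translation factors, 1 was higher and 3 were lower in Grh+ than in D+ INPs, and in Ey+ against D+ INPs the counts were 1 up and 2 down, with medians of -0.34 and -0.31. The shares of all genes were 3.37% higher and 2.85% lower in Grh+, and 3.42% higher and 4.52% lower in Ey+ against D+ INPs. Whether counts of 1 to 3 of 49 differ from these shares was not tested. Of the 49, 40 were negative in Grh+ and 36 in Ey+ against D+ INPs, and the medians over all genes tested were 0.00 and -0.02. eIF2beta, a subunit of the factor that brings the initiator tRNA, had 188, 193 and 193 RPM in Grh+ INPs and 99.3, 171 and 194 RPM in Ey+ INPs, against 280, 417 and 314 RPM in D+ INPs (-0.97 ± 0.205 and -1.03 ± 0.205, adjusted p = 0.0279 and 0.0200). eEF1alpha2, an elongation factor paralog, was higher in Grh+ than in D+ INPs (1.15 ± 0.211, adjusted p = 0.0162) and lower in Ey+ than in Grh+ INPs (-1.52 ± 0.214, adjusted p = 0.0250). eIF4H1, a helper of the initiation helicase, was higher in Ey+ than in D+ INPs (3.21 ± 0.681, adjusted p = 0.0244), with 883, 277 and 175 RPM in Ey+ INPs, against 92.1, 42.5 and 41.9 RPM in D+ INPs.

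Of 17 ribosome biogenesis factors, 1 was called against D+ INPs, a count near those shares. It was pit, a nucleolar RNA helicase, which was lower in Grh+ and in Ey+ than in D+ INPs (-0.97 ± 0.218 and -1.23 ± 0.219, adjusted p = 0.0329 and 0.0120). The median log2 fold change of the 17 was -0.14 in Grh+ and -0.36 in Ey+ against D+ INPs, with 12 and 17 negative. Over all genes tested the medians were 0.00 and -0.02. None of 9 RNA polymerase I genes and none of 9 regulators of RP genes and mRNAs was called in any comparison. Among these regulators, of which Tor was not analysed here, Trf2, which drives transcription from RP promoters, had 1016, 101 and 50.3 RPM in Ey+ INPs, against 24.3 to 109 RPM over the D+ and Grh+ libraries, so that its level was high in Ey+ replicate 1 alone. Mitochondrial RP genes, which encode the separate ribosome of mitochondria, had 7 of 70 lower in Grh+ than in D+ INPs and 16 of 70 lower in Ey+ than in D+ INPs, with none higher and medians of -0.56 and -0.60, where 2.85% and 4.52% of all genes were called lower. Those past the stricter rule in both comparisons were mRpL14, mRpL23, mRpL28, mRpL33, mRpL37 and mRpS21, and the lowest of those called was mRpS21, at -2.23 ± 0.408 (adjusted p = 0.0160) and -2.15 ± 0.406 (adjusted p = 0.0157). Between Ey+ and Grh+ INPs none of the 70 was called, and the median was -0.10.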

How the data were processed

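RNA of sorted INPs was measured in 9 libraries by DigiTag, oligo-dT primed, tagmented and read single-end. Per the labels and the study's methods, the authors discarded rRNA reads by BWA 0.7.12, aligned with TopHat2 2.1.1, marked duplicates by molecular tag, masked snoRNA, tRNA, rRNA and snRNA genes and pseudogenes with bedtools 2.26.0 and counted reads per gene, without strand, with HTSeq 0.6.1. The deposited values are these raw counts. Whether marked duplicates were left out is not given in the sources used here. Reads with several alignments or genes were set aside, so near-identical copies are undercounted. The 5 summary lines per file held 34.7% to 53.2% of all lines' counts and entered neither library sizes nor tests.

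From the counts, RPM was computed per library over all genes. Fold changes came from edgeR 4.0.16 (R 4.3.3; limma 3.58.1 loaded by it) with TMM, filterByExpr by state and 1 coefficient per state, at a common coefficient of variation of 0.477. Calls had an adjusted p under 0.05. Alternatives were other scalings (DESeq2 size factors, library size only, upper quartile), no filter, at least 10 counts in every library, the test of DESeq2 1.42.0, only the 6 libraries compared, a replicate block, removal of a loess trend on exon length (span 0.5), and each library left out. Paralog ratios had a prior count of 1. Wilson intervals (95%) and the floor of 3 counts cover counting error only. The procedure was tested on simulated data.

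Symbols came from a gene name table (99.0% of identifiers matched). Positions, exon lengths and overlaps came from an Ensembl annotation (BDGP6.54) of the assembly the authors used, but of another annotation release than their gene models. Named genes are all paralogs, -like, stalk and ubiquitin-fusion genes, sta, the genes past the stricter rule, the 5 highest and lowest fold changes per comparison and the 5 most and least abundant per kilobase; of the other lists, genes past the stricter rule are named, mitochondrial ones in part, and RpL37-1, Trf2 and CG7099 were chosen after their values were seen. The RP genes, lists and tests were chosen with earlier results of these data known. Values of 1 paralogous pair are not reported here, though its genes count in the totals.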

Additional observations from a re-analysis of the deposited data

How the results depend on the processing

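No RP gene changed sign while called under any alternative, and the member medians kept their sign. With single libraries left out, the median in Grh+ against D+ INPs ran from -0.70 to -0.31, against -0.55. In Ey+ against D+ INPs it ran from -0.94 to -0.54, against -0.78. Both were lowest without D+ replicate 1 and highest without D+ replicate 2. RP genes called in Grh+ against D+ INPs numbered 3 with library size only and 22 with DESeq2's test, against 8, and 0 to 27 with single libraries left out. In Ey+ against D+ INPs, against 25, they numbered 12 without a filter, 13 with library size only, 44 with DESeq2, 3 with only the 6 libraries compared, 15 with the exon length trend removed, and 2 to 45 with single libraries left out. Relative to the RP genes, the counts of 8 and 11 ranged over 0 to 10 and 3 to 15 with single libraries left out. The median in Ey+ against Grh+ INPs was -0.44 with library size only, where the median of all genes was -0.29. With single libraries left out it ran from -0.32 without Ey+ replicate 3 to -0.07 without Ey+ replicate 1. With the replicate number as a block, 6, 16 and 0 RP genes were called in Grh+ against D+, Ey+ against D+ and Ey+ against Grh+ INPs. Deviations of same-numbered libraries from their state means had correlations from -0.26 to 0.50, and those of other pairs from -0.54 to 0.37. Not every library correlated best with its own number. With 3 libraries per mean, these values cannot decide whether the numbers pair the libraries. Leaving out a library changes the number of libraries and genes tested, and the cause of the other differences was not tested. With 3 libraries per state an exact permutation test cannot go below 0.1.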
